A study of Mus musculus with 8 samples.

Results

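Spermine, a polyamine, was set against PBS in mouse bone marrow derived macrophages that had been given interferon-β (IFN-β) for 3 h. Bone marrow derived macrophages are phagocytes grown in culture from marrow precursors. The groups were spermine at 3 h of IFN-β and PBS at 3 h of IFN-β, with 2 libraries each, so 4 of the 8 libraries in the study. The other 4 libraries, spermine at 0 h and PBS at 0 h with 2 each, served as the unstimulated background. The labels give no strain, age, sex, spermine dose or length of spermine treatment, and every group comes from the same cell type. A BM number (1 or 2) in the labels names the replicate, and whether a number stands for a mouse or a culture is not stated, so p-values measure the spread between these libraries. All genes with at least 1 FPKM in at least 2 of the 8 libraries were compared. These were 11421 of the 54532 genes in the table, 9810 of them protein coding. The deposited FPKM are fragment counts corrected for gene length and for a scale factor of each library, which did not follow the read total. The title of the series names the kinase JAK1 as a target of spermine, and the comparison asks how spermine changes the transcript response to IFN-β.

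IFN-β binds a receptor of the chains IFNAR1 and IFNAR2, whose kinases TYK2 and JAK1 phosphorylate STAT proteins, STAT2 among them. Together with IRF9 these enter the nucleus and bind the interferon-stimulated response element in promoters of antiviral genes, while a separate element, the gamma-activated site, is bound by STAT proteins without IRF9. The response is limited by induced inhibitors such as SOCS1 and USP18. Polyamines (putrescine, spermidine and spermine) are made from ornithine by the enzyme ODC1, and cells sense their level through antizymes that lead ODC1 to degradation. NRF2, the product of Nfe2l2, switches on antioxidant genes when oxidants or electrophiles disable its inhibitor KEAP1, and ATF4 drives the integrated stress response.

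The libraries held 15723437 to 17744844 reads rebuilt from the deposited values. Replicates correlated at a Pearson r of 0.991 in the spermine 3 h group and 0.986 in the PBS 3 h group on the log2 scale over the genes tested. The median gap between replicates was 0.0907 on the log2 scale in the spermine 3 h group and 0.152 in the PBS 3 h group. The 2 PBS libraries therefore lay further apart, and they did so in 1 direction for some interferon genes: PBS replicate 1 was above PBS replicate 2 for 18 of 18 interferon-inducible GTPases and 22 of 24 nucleic acid sensors. The spermine 3 h pair leaned the other way, with replicate 1 higher for 3 of 18 GTPases and 1 of 24 sensors. Such leans were not particular to interferon genes. Replicate 1 was higher for 12 of 13 mRNAs of the mitochondrial genome with PBS at 3 h and for 2 with spermine at 3 h. For nuclear oxidative phosphorylation genes it was higher for 16 of 75 with PBS and 53 with spermine. At 0 h, replicate 1 was higher for 14 GTPases and 20 sensors with PBS, and for 7 GTPases and 19 sensors with spermine. The macrophage label held: the 12 macrophage markers, among them Cd68, summed to 14352 and 14437 FPKM with spermine, against 12512 and 11770 FPKM with PBS. The marker lists of T and NK cells summed to 5.09 and 5.25 FPKM with spermine, against 8.01 and 7.67 FPKM with PBS, and 5 of those 9 markers were at 0 in all 4 libraries. The B cell, neutrophil, dendritic cell and mast cell lists each summed to between 0.143 and 8.32 FPKM in the 4 libraries. Pf4, a platelet chemokine gene that macrophages also express, carried most of the platelet list at 42.1 and 38.2 FPKM in spermine libraries, against 23 and 26.2 FPKM in PBS libraries. Kdr, an endothelial receptor gene, carried most of the endothelial list at 18.9 and 19.6 FPKM in spermine libraries, against 37.3 and 36.3 FPKM in PBS libraries, and the part of either gene's source cells in the results was not tested. In RNA from whole cultures, fewer cells of a type and less RNA per cell cannot be told apart.

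At 3 h of IFN-β, spermine changed 4626 of 11421 genes, 40.5% of those tested, at an adjusted p under 0.05 (limma on log2(FPKM + 1), Benjamini-Hochberg adjustment over all genes tested). Of these, 2276 rose (19.9% of genes tested) and 2350 fell (20.6%), so any list is read below against about 1 in 5 genes in each direction. The change was at least 1 on the log2 scale for 446 rising and 374 falling genes. The deposited scale matched median-of-ratios factors, which set the typical gene level equal between libraries. It holds the median change near 0, so the median and the near-even split are not results about spermine. The median gene changed by -0.003 on this scale. Rescaling each library to a fixed FPKM total (TPM) moved that median by -0.17 and turned the split to 1305 rising against 3635 falling, because the libraries' FPKM totals were 404833 and 400534 with spermine and 351671 and 345825 with PBS. Directions below are on the deposited scale, and the TPM result is given where it changes what a list shows. Without spermine 3 h replicate 1 the count was 2912, the lowest of any library left out.

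**Figure D1:**
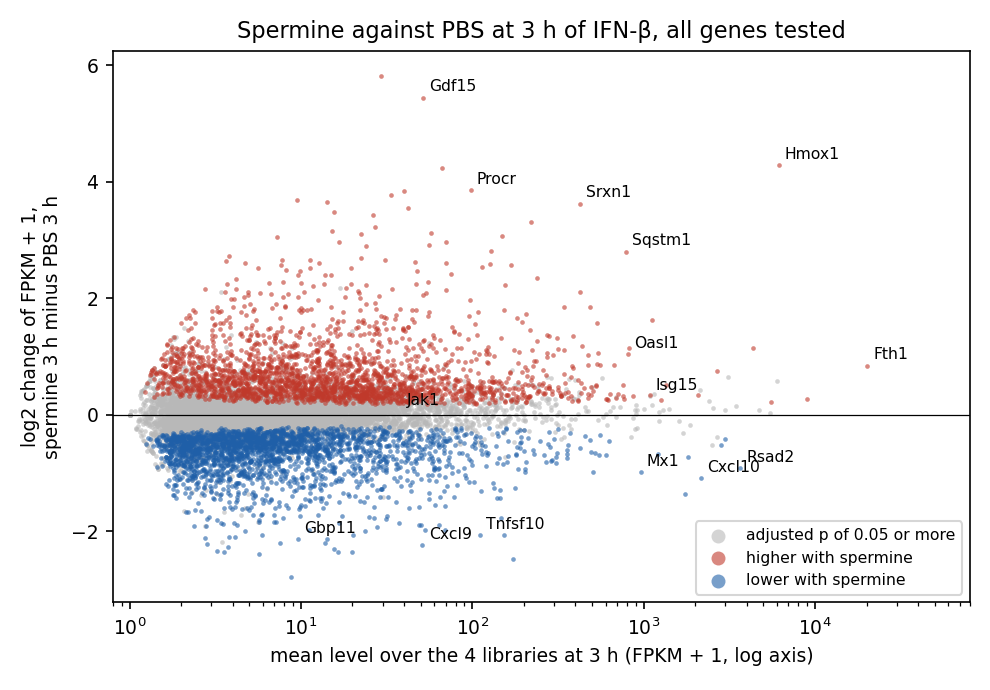
Each point is 1 of 11421 genes; the x axis is the mean level over the 4 libraries at 3 h (FPKM + 1, log axis) and the y axis the log2 change of FPKM + 1, spermine minus PBS. Red points (2276) were higher with spermine and blue points (2350) lower at an adjusted p under 0.05; Hmox1 and Gdf15 stand at the top, Cxcl9 and Gbp11 near the bottom, and Jak1 near 0.

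Chemokine and cytokine genes that IFN-β induces were mostly lower with spermine. Of the 17 tested, 11 fell and 1 rose, with a median of -0.98 against -0.003 over all genes. Cxcl9, which draws CXCR3-bearing T cells, had 16.8 and 17 FPKM in spermine libraries, against 93 and 74.2 FPKM in PBS libraries. Both spermine libraries were far below both PBS libraries, a log2 change of -2.23 (SE 0.11, adjusted p 2.4e-05). At 0 h it had 0.0601 and 0.0547 FPKM with spermine, against 0.0579 and 0.0329 FPKM with PBS. Cxcl11, a further CXCR3 ligand gene, is annotated as a polymorphic pseudogene and not as protein coding. Cxcl11 had 4.25 and 3.61 FPKM in spermine libraries, against 14.2 and 13.4 FPKM in PBS libraries. Its groups did not overlap either (log2 -1.59, adjusted p 5.9e-05). Cxcl10, the most abundant of the 3 CXCR3 ligands, had 1378 and 1386 FPKM in spermine libraries, against 2999 and 2869.6 FPKM in PBS libraries, a smaller fall of -1.09 (SE 0.12, adjusted p 0.00063). Transcripts of all 3 CXCR3 ligand genes were lower in each spermine library.

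Tnfsf10, the death ligand TRAIL, had 41.1 and 42.8 FPKM in spermine libraries, against 193 and 164 FPKM in PBS libraries (log2 -2.06, adjusted p 1.7e-05). Il27, which encodes the p28 chain of interleukin-27, had 6.99 and 6.6 FPKM in spermine libraries, against 29.8 and 33.2 FPKM in PBS libraries (log2 -2.06, adjusted p 1.3e-05). Ccl5, a chemokine for T cells and monocytes, had 21.2 and 19.7 FPKM in spermine libraries, against 87.8 and 80.1 FPKM in PBS libraries (log2 -1.98, adjusted p 2.4e-05). For each of these genes the groups were separated by more than the spread within either group. Il10, an anti-inflammatory cytokine, had 5.78 and 5.56 FPKM in spermine libraries, against 16 and 14 FPKM in PBS libraries and also fell (log2 -1.26, adjusted p 0.00079). Ccl12 was the only member past the threshold upward, at 95.6 and 98.2 FPKM in spermine libraries, against 85 and 76.1 FPKM in PBS libraries (log2 0.27, adjusted p 0.029); with TPM rescaling no member rose and 13 fell, and its rise was also lost without either spermine 3 h library, without PBS 3 h replicate 2 and without either PBS 0 h library. The list took 0.376% and 0.379% of reads with spermine, against 0.843% and 0.811% with PBS.

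Antiviral effector genes were lower on balance, by a smaller and uneven amount. Of 67 tested, 46 fell and 3 rose, with a median of -0.52, and their share of reads was 6.58% and 6.88% with spermine, against 10.8% and 9.87% with PBS. Rsad2, whose product viperin makes a chain-terminating nucleotide, had 2441 and 2638 FPKM in spermine libraries, against 5125 and 4434 FPKM in PBS libraries. The groups did not overlap, and the log2 change was -0.91 (SE 0.09, adjusted p 0.00038). Mx1, a dynamin-like antiviral GTPase, had 631 and 659.8 FPKM in spermine libraries, against 1369 and 1179.5 FPKM in PBS libraries (log2 -0.98, adjusted p 0.0011). The steepest falls were in Parp11, a mono-ADP-ribosyltransferase, at 10.0 and 10.9 FPKM in spermine libraries, against 46.1 and 39.5 FPKM in PBS libraries (log2 -1.93, adjusted p 3e-05). Ifi44 followed at 19.5 and 20.6 FPKM in spermine libraries, against 69.9 and 56.4 FPKM in PBS libraries (log2 -1.60, adjusted p 8.7e-05), and Uba7, the enzyme that activates ISG15 for conjugation, had 40.6 and 43.2 FPKM in spermine libraries, against 111 and 115 FPKM in PBS libraries (log2 -1.41, adjusted p 4.6e-05).

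Some of the most abundant antiviral transcripts did not pass the test. Ifit1, which binds foreign RNA ends, had 1944 and 2164 FPKM in spermine libraries, against 3307 and 2634 FPKM in PBS libraries. Both spermine values were below both PBS values, but PBS replicates lay further apart than the nearest values of the 2 groups. The change of -0.52 had an adjusted p of 0.074. Ifit1 passed as lower with TPM rescaling, with voom on the rebuilt reads, when the 3 h libraries were fitted alone and without either PBS 0 h library. Ifit3 had 2470.4 and 2630.0 FPKM in spermine libraries, against 3643 and 3143 FPKM in PBS libraries and passed narrowly, losing the call without any 1 of the 4 libraries (log2 -0.41, adjusted p 0.048). Isg15, the ubiquitin-like modifier, had 1205 and 1194 FPKM in spermine libraries, against 865 and 1071 FPKM in PBS libraries, with a log2 change of 0.32 that missed the threshold (adjusted p 0.18) and passed as higher with voom. The 3 members that rose were Oasl1, Trim25 and Ifi27. Ifi27 had 24.1 and 22.1 FPKM in spermine libraries, against 15.3 and 18.8 FPKM in PBS libraries (log2 0.42, adjusted p 0.034), a call lost with TPM rescaling, without either spermine 3 h library, without PBS 3 h replicate 1 and without either PBS 0 h library. Oasl1, which restrains translation of Irf7 mRNA in mice, had 1091 and 1073 FPKM in spermine libraries, against 504 and 549.7 FPKM in PBS libraries (log2 1.04, adjusted p 0.0013). Trim25, a ubiquitin ligase of the RIG-I pathway, had 265 and 261 FPKM in spermine libraries, against 173 and 174 FPKM in PBS libraries (log2 0.60, adjusted p 0.00029). For Oasl1 and Trim25 both spermine libraries stood above both PBS libraries. Leaving out 1 library at a time gave 30 to 43 falling members at 3 h when the library was from a 3 h group: 30 without spermine replicate 1, 34 without spermine replicate 2, 31 without PBS replicate 1 and 43 without PBS replicate 2.

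Interferon-inducible GTPases, which attack the vacuoles of intracellular microbes, were lower in the guanylate-binding protein family and mixed among the others. Of 18 tested, 13 fell and 2 rose, with a median of -0.82. Gbp4 had 28.6 and 29.5 FPKM in spermine libraries, against 89.5 and 72.8 FPKM in PBS libraries (log2 -1.44, adjusted p 0.00011), and Gbp2, the most abundant guanylate-binding protein gene, had 893 and 975 FPKM in spermine libraries, against 1596 and 1375 FPKM in PBS libraries (log2 -0.67, adjusted p 0.0045). Gbp11 was the steepest at 2.81 and 2.3 FPKM in spermine libraries, against 15.9 and 13.4 FPKM in PBS libraries (log2 -2.14, adjusted p 4.1e-05). It is annotated as a polymorphic pseudogene and not as protein coding. All 9 guanylate-binding protein genes tested fell, from -0.67 for Gbp2 to -2.14 for Gbp11. The 2 members that rose were immunity-related GTPases: Irgm1 had 509 and 545 FPKM in spermine libraries, against 445 and 382 FPKM in PBS libraries (log2 0.35, adjusted p 0.031) and Igtp had 652 and 673 FPKM in spermine libraries, against 579.7 and 521 FPKM in PBS libraries (log2 0.27, adjusted p 0.031). Their spermine libraries lay just above their PBS libraries, and neither passed upward with TPM rescaling, without either spermine 3 h library or without PBS 3 h replicate 2. Gbp genes are close copies of one another, and no source used here says how reads shared between copies were counted.

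**Figure D2:**
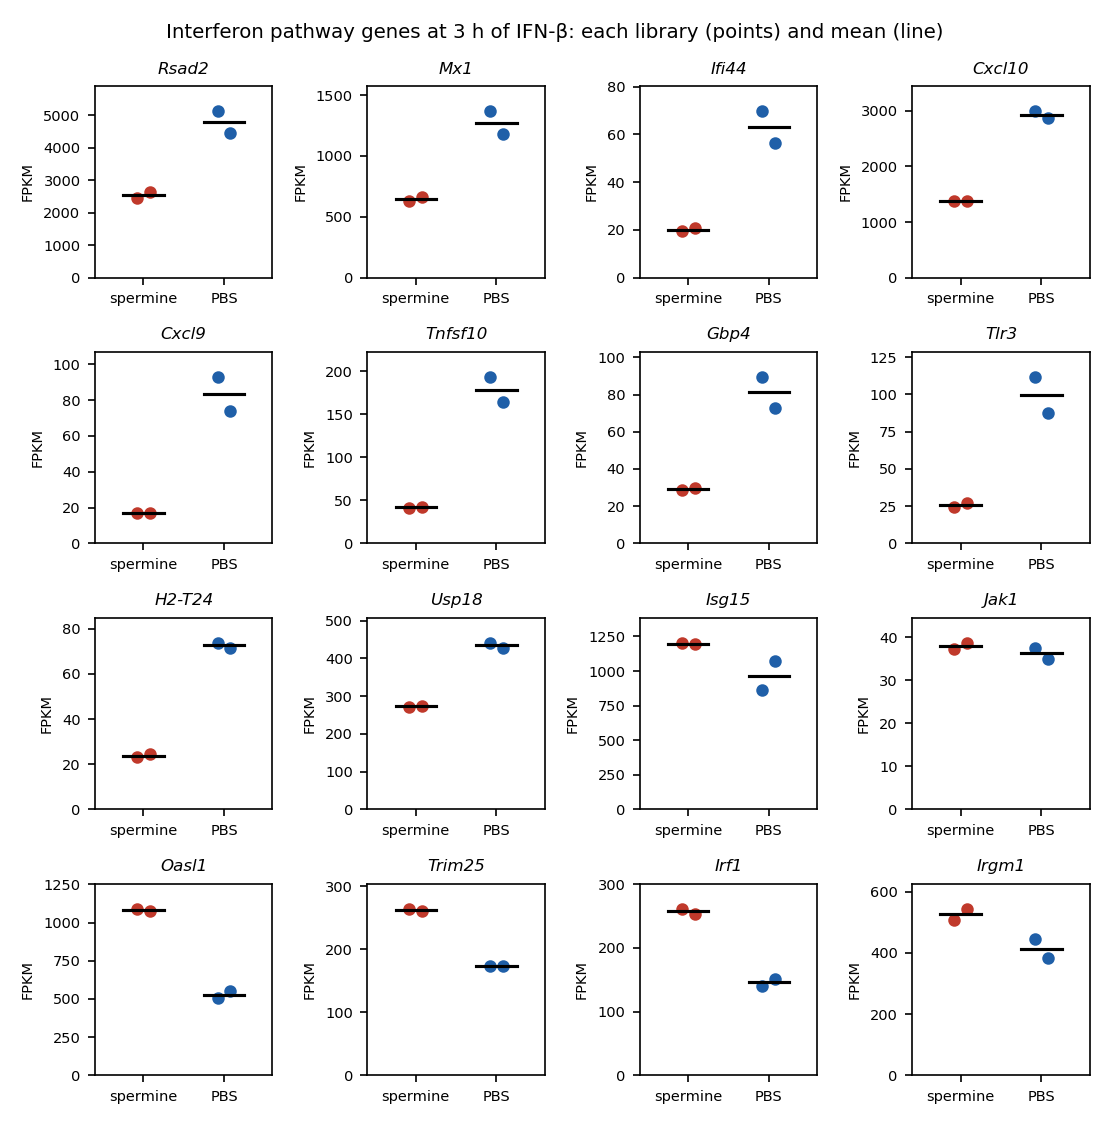
FPKM of 16 genes of the interferon pathway at 3 h, with a linear axis from 0; points are libraries (spermine left, PBS right) and lines are group means of 2. Rsad2 through Usp18 lie lower with spermine with no overlap, Isg15 and Jak1 did not pass the test, and Oasl1, Trim25, Irf1 and Irgm1 lie higher.

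Sensors of foreign nucleic acid followed the effectors. Of 24 tested, 16 fell and 0 rose (median -0.67). Tlr3, the endosomal receptor of double-stranded RNA, had 24.4 and 27.3 FPKM in spermine libraries, against 112 and 87.5 FPKM in PBS libraries and the groups were far apart (log2 -1.90, adjusted p 8.7e-05). Tlr9, the receptor of unmethylated DNA, had 14.2 and 15.9 FPKM in spermine libraries, against 35.2 and 41.6 FPKM in PBS libraries (log2 -1.29, adjusted p 0.00028). Aim2, a cytosolic DNA sensor, had 32.6 and 35.7 FPKM in spermine libraries, against 85.9 and 66 FPKM in PBS libraries (log2 -1.12, adjusted p 0.0021). Ifi205 had 54.8 and 62.7 FPKM in spermine libraries, against 141 and 103 FPKM in PBS libraries (log2 -1.03, adjusted p 0.0021). Without PBS 3 h replicate 1, or without spermine 3 h replicate 1, 11 sensors fell in place of 16.

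Genes of antigen presentation by MHC class I were lower in part, with the steepest falls at non-classical genes. Of 22 genes of class I molecules, peptide loading and the immunoproteasome, 15 fell and 0 rose (median -0.47). H2-T24 had 23 and 24.4 FPKM in spermine libraries, against 73.8 and 71.6 FPKM in PBS libraries (log2 -1.58, adjusted p 1.7e-05), and H2-Q6 had 14.8 and 14.2 FPKM in spermine libraries, against 30.9 and 31.1 FPKM in PBS libraries (log2 -1.05, adjusted p 0.00034). Both showed replicates that nearly coincided within each group. The abundant members did not pass: B2m, the common light chain, had 4748 and 4855 FPKM in spermine libraries, against 5042 and 4100.3 FPKM in PBS libraries (log2 0.08, adjusted p 0.66), and H2-D1, a classical heavy chain, had 2568 and 2339.8 FPKM in spermine libraries, against 1623 and 2041 FPKM in PBS libraries (log2 0.43, adjusted p 0.076). H2-D1 passed as higher with voom, with quantile normalization, with the replicate number as a block (adjusted p 0.036) and without PBS 3 h replicate 2, and B2m passed as lower with quantile normalization. Counts of H2 genes are uncertain, since their sequences are close copies. Of 6 class II genes, 3 rose, among them Cd74, the invariant chain, at 569 and 528 FPKM in spermine libraries, against 415 and 448 FPKM in PBS libraries (log2 0.34, adjusted p 0.0096), which did not pass with TPM rescaling, without spermine replicate 1 or without PBS replicate 1.

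Jak1, the kinase in the title, did not pass the test at the transcript level. It had 37.3 and 38.7 FPKM in spermine libraries, against 37.6 and 35 FPKM in PBS libraries, and these ranges overlapped (log2 0.07, SE 0.08, adjusted p 0.55). Tyk2, the partner kinase, had 9.75 and 9.76 FPKM in spermine libraries, against 17.5 and 21.2 FPKM in PBS libraries, lower with spermine in both libraries (log2 -0.91, SE 0.13, adjusted p 0.0021). Ifnar1 had 28.2 and 30.1 FPKM in spermine libraries, against 31.3 and 30.4 FPKM in PBS libraries and did not pass (log2 -0.08, adjusted p 0.39), though it passed as lower with TPM rescaling (log2 -0.28, adjusted p 0.026). Ifnar2 had 44.9 and 46.2 FPKM in spermine libraries, against 37.6 and 35 FPKM in PBS libraries and rose (log2 0.32, adjusted p 0.0066), a call lost with TPM rescaling and without spermine 3 h replicate 2. Of 12 receptor and kinase genes, 5 fell and 1 rose. A transcript level says nothing of kinase activity, which was not measured.

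The transcription factor genes moved both ways. Irf1, an activator of interferon genes and itself induced early by interferon, had 262 and 253 FPKM in spermine libraries, against 141 and 151 FPKM in PBS libraries (log2 0.81, SE 0.08, adjusted p 0.00034). Both spermine libraries were above both PBS libraries. Stat2 had 164 and 170.0 FPKM in spermine libraries, against 216 and 221 FPKM in PBS libraries (log2 -0.39, adjusted p 0.041) and Irf7 had 422 and 406 FPKM in spermine libraries, against 515 and 609 FPKM in PBS libraries (log2 -0.44, adjusted p 0.022), both modest falls. Stat2 did not pass without any single 1 of the 4 libraries at 3 h, and Irf7 did not pass without either spermine library or without PBS replicate 2. Irf9 had 50.8 and 49.8 FPKM in spermine libraries, against 47.7 and 44.2 FPKM in PBS libraries and did not pass (log2 0.13, adjusted p 0.32). In all, 7 of 16 STAT and IRF genes fell and 3 rose.

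The inhibitors of the pathway split as well, 4 rising and 5 falling of 17 (median -0.005), against 19.9% rising and 20.6% falling over all genes tested. Socs1, which binds JAK kinases, had 79.9 and 67.6 FPKM in spermine libraries, against 158 and 251 FPKM in PBS libraries (log2 -1.42, SE 0.24, adjusted p 0.0039). The PBS libraries differed widely, yet both exceeded the spermine libraries. Socs3, which acts mainly on gp130 receptors, went the other way at 91.7 and 79.9 FPKM in spermine libraries, against 17.1 and 21.8 FPKM in PBS libraries (log2 2.09, SE 0.13, adjusted p 5.4e-05). Usp18, which holds back the IFNAR2 chain, had 271 and 275 FPKM in spermine libraries, against 441 and 429 FPKM in PBS libraries (log2 -0.67, adjusted p 0.00031). Among the phosphatases, Ptpn6 had 29.1 and 30.4 FPKM in spermine libraries, against 60.1 and 58.3 FPKM in PBS libraries (log2 -0.97, adjusted p 8e-05) and Ptpn1, which dephosphorylates TYK2 and JAK2, had 139.7 and 135 FPKM in spermine libraries, against 59.2 and 70.9 FPKM in PBS libraries (log2 1.08, adjusted p 0.00027).

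Promoter sequences were read from RefSeq windows of 250 bases before to 50 bases after each start on GRCm38.p6, and searched on both strands. Counts are of genes with a window, and a gene counted as holding a core if any of its windows did. The core of the interferon-stimulated response element is GAAA and GAAA with any 2 bases between. Among interferon-list genes with a window, 40 of 75 that fell (53.3%) and 11 of 29 that did not pass (37.9%) held it. Of those that rose, 2 of 5 held it. The share was 3.99% over all 27025 genes with a window, and 130 of the 1756 tested genes with a window that fell held it. Cxcl10 and Rsad2 are shown as genes that fell, Irgm1 and Igtp as genes that rose, with the core in capitals (the reverse complement where it lies on the other strand). The Cxcl10 stretch is chr5:92349073-92349122 on the minus strand, Rsad2 chr12:26456543-26456592 on the minus strand, Irgm1 chr11:48871421-48871470 on the minus strand and Igtp chr11:58199502-58199551 on the plus strand. Each is written 5′ to 3′ on its gene's strand.
Cxcl10: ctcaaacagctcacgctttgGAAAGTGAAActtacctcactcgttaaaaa
Rsad2: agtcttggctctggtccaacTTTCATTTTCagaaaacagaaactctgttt
Irgm1: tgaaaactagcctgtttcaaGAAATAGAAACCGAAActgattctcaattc
Igtp: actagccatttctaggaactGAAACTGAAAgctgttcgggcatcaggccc
The same core thus lies near the start of genes that fell and of Irgm1 and Igtp. The rises of these 2 were small and, as given above, were lost with TPM rescaling and without either spermine 3 h library. A match describes letters in a window and not a bound site. The Irgm1 stretch holds 2 overlapping cores. A core of the gamma-activated site, TTCNNNGAA, was searched after the values were seen and was held by 9.55% of all genes with a window. Among interferon-list genes with a window, 11 of 75 that fell (14.7%) and 6 of 29 that did not pass (20.7%) held this core. Of those that rose, 1 of 5 held it. Among all tested genes with a window, 8.26% of those that rose and 8.88% of those that fell held this core. The core is shown for Irf1 (chr11:53769904-53769952, plus strand) and Socs3 (chr11:117969492-117969540, minus strand), both among the pathway genes that rose and chosen after the values were seen.
Irf1: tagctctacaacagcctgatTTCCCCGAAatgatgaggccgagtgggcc
Socs3: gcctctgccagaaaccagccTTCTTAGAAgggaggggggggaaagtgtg

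The targets of NRF2 had the highest median of the gene lists. All 25 genes of that list rose, with a median of 1.8, and they took 6.35% and 6.20% of reads with spermine, against 2.00% and 2.17% with PBS. Hmox1, which encodes the heme-degrading enzyme heme oxygenase 1 (ENSMUSG00000005413, chromosome 8 from 75093621 to 75100589 on GRCm38), had 11541 and 11790.0 FPKM in spermine libraries, against 617 and 578 FPKM in PBS libraries. The spermine libraries agreed closely and exceeded the PBS libraries by a log2 change of 4.28 (SE 0.07, adjusted p 1.1e-06). Srxn1, which repairs oxidized peroxiredoxins, had 776 and 794 FPKM in spermine libraries, against 61.9 and 63.5 FPKM in PBS libraries (log2 3.63, adjusted p 1e-06). Slc7a11, the cystine importer that feeds glutathione synthesis, had 25.7 and 24.9 FPKM in spermine libraries, against 1.19 and 0.965 FPKM in PBS libraries (log2 3.66, adjusted p 3.2e-06). Osgin1, an oxidative stress growth inhibitor gene, had 26.8 and 25.6 FPKM in spermine libraries, against 1.85 and 2.25 FPKM in PBS libraries (log2 3.16, adjusted p 6.7e-06).

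The ferritin heavy chain gene Fth1, the most abundant of the list, had 26677 and 25340.0 FPKM in spermine libraries, against 14108 and 14824 FPKM in PBS libraries (log2 0.85, adjusted p 0.00032). This call was lost in the limma fit without the filter on low values (adjusted p 0.40). Slc40a1, the iron exporter ferroportin, had 73.2 and 74.1 FPKM in spermine libraries, against 4.82 and 3.67 FPKM in PBS libraries (log2 3.84, adjusted p 5.7e-06). Both iron genes were higher in each spermine library. Of the genes that control NRF2, Nfe2l2 itself had 57.5 and 60.0 FPKM in spermine libraries, against 42.4 and 36.1 FPKM in PBS libraries, a modest rise (log2 0.57, adjusted p 0.0022). Maff, a small MAF partner of NRF2, rose more, at 11.6 and 11.8 FPKM in spermine libraries, against 2.21 and 2.74 FPKM in PBS libraries (log2 1.87, adjusted p 0.00014). The antioxidant response element core, TGACNNNGC, was held by 9 of the 20 target list genes with a window (45.0%). Among genes with a window, this core was held by 22.4% of tested genes that rose, 17.6% of all tested genes and 14.0% of all genes. It is shown for Gclm (chr3:122245403-122245451, plus strand) and Txnrd1 (chr10:82859094-82859142, plus strand), chosen after the values were seen because their windows hold the core, here as its reverse complement in capitals.
Gclm: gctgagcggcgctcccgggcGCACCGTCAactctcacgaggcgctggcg
Txnrd1: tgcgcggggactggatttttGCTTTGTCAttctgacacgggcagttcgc
Gclm, a subunit of the enzyme that starts glutathione synthesis, had 286 and 286 FPKM in spermine libraries, against 47 and 47.8 FPKM in PBS libraries (log2 2.57, adjusted p 1.9e-06). Txnrd1, thioredoxin reductase, had 228 and 223 FPKM in spermine libraries, against 32.5 and 30.1 FPKM in PBS libraries (log2 2.81, adjusted p 1.9e-06).

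Genes of the integrated stress response formed the next group. Of 27 tested, 16 rose and none fell past the threshold (median 1.2; with TPM rescaling 14 rose and 2 fell). Gdf15, a stress hormone of the TGF-β family, had the largest change among the named protein-coding genes, with 103 and 95.9 FPKM in spermine libraries, against 0.928 and 1.74 FPKM in PBS libraries. It was low in both PBS libraries and abundant in both spermine libraries (log2 5.45, SE 0.26, adjusted p 2.3e-05). Ddit4, an inhibitor of mTORC1, had 17.9 and 15.1 FPKM in spermine libraries, against 0.286 and 0.423 FPKM in PBS libraries (log2 3.69, adjusted p 1.3e-05). Ppp1r15a, the phosphatase subunit GADD34 that ends the response, had 106 and 98.9 FPKM in spermine libraries, against 10.1 and 11.6 FPKM in PBS libraries (log2 3.13, adjusted p 8.4e-06). Atf4, the central transcription factor, had 164 and 169.6 FPKM in spermine libraries, against 48.1 and 48.2 FPKM in PBS libraries (log2 1.77, adjusted p 1.4e-05). Psat1, an enzyme of serine synthesis, did not pass the test: it had 2.94 and 3.49 FPKM in spermine libraries, against 3.01 and 3.03 FPKM in PBS libraries (log2 0.06, adjusted p 0.62).

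Chaperone genes of the heat shock response rose in 11 of 16 cases and fell in 1 (median 0.63). Hspa1a, an inducible HSP70 gene, had 29.2 and 25.8 FPKM in spermine libraries, against 1.26 and 1.88 FPKM in PBS libraries (log2 3.48, adjusted p 4.2e-05); its near-identical copy Hspa1b had 34.8 and 30.3 FPKM in spermine libraries, against 4.6 and 5.1 FPKM in PBS libraries, and reads may be divided between them. Dnajb4, an HSP40 co-chaperone, had 14.7 and 16.3 FPKM in spermine libraries, against 2.53 and 2.32 FPKM in PBS libraries (log2 2.27, adjusted p 1.3e-05). Of 21 genes of the unfolded protein response, 9 rose and 2 fell, a smaller shift (median 0.29). Dnajb9, an endoplasmic reticulum co-chaperone, had 21.6 and 22.9 FPKM in spermine libraries, against 8.8 and 7.43 FPKM in PBS libraries (log2 1.35, adjusted p 0.0001).

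**Figure D3:**
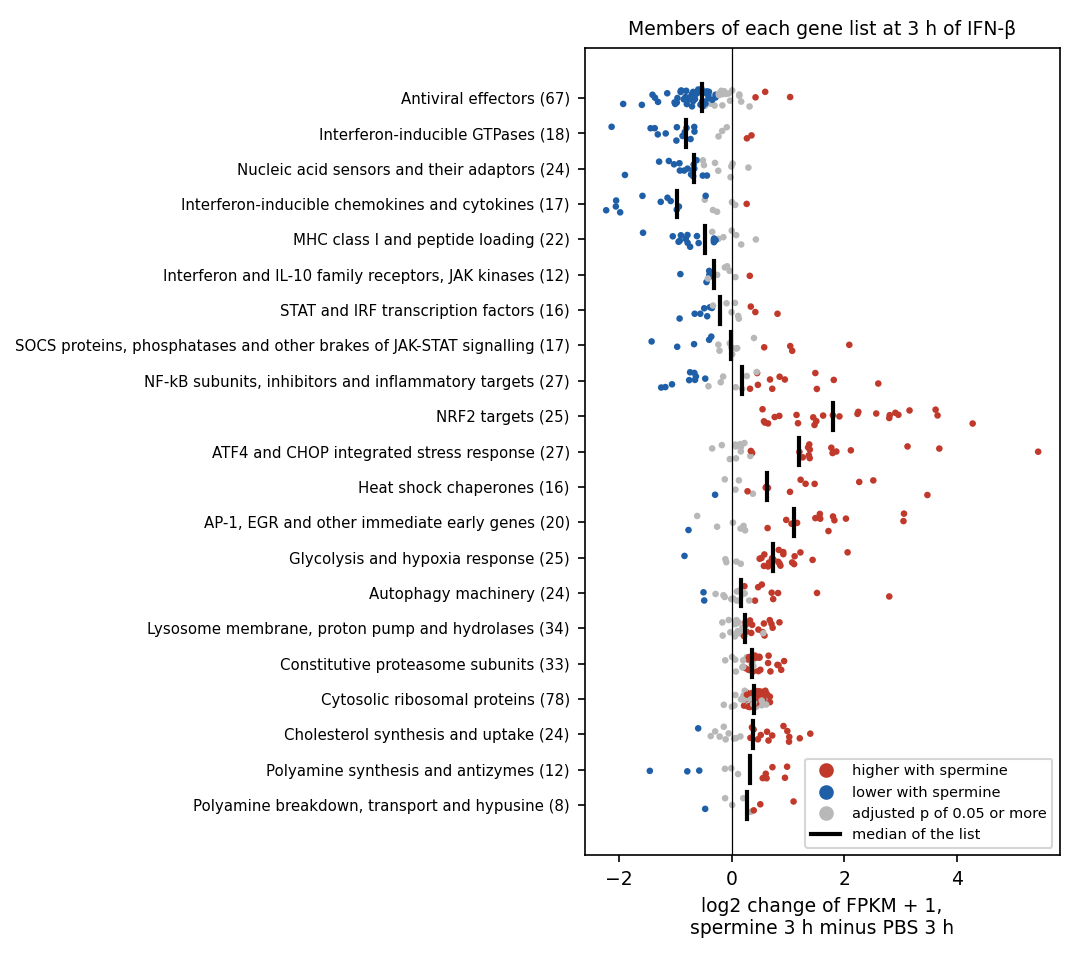
Each point is a gene of the named list (number tested in brackets), placed by its log2 change of FPKM + 1, spermine 3 h minus PBS 3 h; red and blue mark genes past an adjusted p of 0.05 and the black bar is the list's median. The interferon lists at the top lie left of 0 (medians -0.47 to -0.98 for the first 5) and the NRF2 targets lie farthest right at 1.8.

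Immediate-early genes, the first wave of MAPK-driven transcription, rose in 13 of 20 cases and fell in 1 (median 1.11). Ier3 had 274 and 255 FPKM in spermine libraries, against 30.0 and 31.5 FPKM in PBS libraries (log2 3.06, adjusted p 8.6e-06), and Fosl1, an AP-1 subunit, had 12.9 and 11.1 FPKM in spermine libraries, against 0.42 and 0.725 FPKM in PBS libraries (log2 3.05, adjusted p 8.6e-06). Both were far higher in each spermine library. Fos and Jun, the best known members, did not pass: Fos had 202 and 200.4 FPKM in spermine libraries, against 182 and 178 FPKM in PBS libraries (adjusted p 0.073) and Jun had 106 and 96.5 FPKM in spermine libraries, against 76.2 and 96 FPKM in PBS libraries (adjusted p 0.35). Genes that shut MAPK signalling off or degrade cytokine mRNA also rose, 11 of 19, with 3 falling. Dusp1, a MAPK phosphatase, had 424 and 376 FPKM in spermine libraries, against 34.7 and 44.4 FPKM in PBS libraries (log2 3.32, adjusted p 2.3e-05). Zfp36, tristetraprolin, which marks cytokine mRNA for decay, had 781 and 745 FPKM in spermine libraries, against 200.4 and 221 FPKM in PBS libraries (log2 1.85, adjusted p 2.5e-05). Spry2 and Spred1, which restrain the RAS pathway, fell: Spry2 had 12 and 12.3 FPKM in spermine libraries, against 26.4 and 29.2 FPKM in PBS libraries and Spred1 had 29.8 and 31.8 FPKM in spermine libraries, against 84.3 and 74.4 FPKM in PBS libraries.

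Inflammatory genes of the NF-κB pathway moved both ways, 11 rising and 9 falling of 27, and the sign of the list's median depended on the scaling (0.19 as deposited, -0.01 with TPM rescaling). Cxcl2, a neutrophil chemokine, had 7.91 and 6.26 FPKM in spermine libraries, against 0.312 and 0.329 FPKM in PBS libraries (log2 2.61, adjusted p 1.8e-05). Il1b had 7.34 and 7.18 FPKM in spermine libraries, against 1.54 and 1.17 FPKM in PBS libraries (log2 1.81, adjusted p 0.00015) and Il6 had 14.4 and 13.3 FPKM in spermine libraries, against 5.4 and 3.37 FPKM in PBS libraries (log2 1.49, adjusted p 0.00077). These 3 cytokine genes were low in PBS libraries and higher in each spermine library. Rel, a subunit of NF-κB, had 11.8 and 12.8 FPKM in spermine libraries, against 32.5 and 26 FPKM in PBS libraries (log2 -1.18, adjusted p 0.00066), and Nfkbia, its inhibitor, had 45.1 and 47 FPKM in spermine libraries, against 75.6 and 81.5 FPKM in PBS libraries (log2 -0.76, adjusted p 0.0017). Nos2, the inducible nitric oxide synthase, had 0.615 and 0.917 FPKM in spermine libraries, against 3.09 and 3.31 FPKM in PBS libraries (log2 -1.25, adjusted p 0.00042). The last 3 were lower in each spermine library.

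Glycolysis and hypoxia genes rose in 20 of 25 cases and fell in 1 (median 0.74), taking 1.13% and 1.10% of reads with spermine, against 0.683% and 0.754% with PBS. Slc2a1, the glucose transporter GLUT1, had 84.8 and 79.9 FPKM in spermine libraries, against 18.9 and 19.1 FPKM in PBS libraries (log2 2.06, adjusted p 2.9e-05). Slc16a3, the lactate exporter MCT4, had 59.7 and 57.1 FPKM in spermine libraries, against 19.1 and 22.9 FPKM in PBS libraries (log2 1.44, adjusted p 0.00045). Hilpda, a lipid droplet gene that hypoxia induces, had 131 and 119.8 FPKM in spermine libraries, against 6.56 and 4.88 FPKM in PBS libraries (log2 4.25, adjusted p 8e-06). The 3 genes were higher in each spermine library. Hif1a itself had 32.9 and 32.4 FPKM in spermine libraries, against 40.7 and 30.8 FPKM in PBS libraries and did not pass (adjusted p 0.54).

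Of 24 cholesterol synthesis and uptake genes, 14 rose and 1 fell (9 and 3 with TPM rescaling, 9 and 1 without spermine 3 h replicate 2). Insig1, which retains the sterol sensor in the endoplasmic reticulum, had 122 and 118 FPKM in spermine libraries, against 44.3 and 45.6 FPKM in PBS libraries (log2 1.40, adjusted p 1.7e-05). Degradation pathways were also higher by small amounts. The proteasome list rose in 22 of 33 cases (10 with TPM rescaling, 12 without spermine 3 h replicate 1). The lysosome list rose in 17 of 34 (8 with TPM rescaling, and 8 and 10 without spermine 3 h replicates 1 and 2). Sqstm1, the autophagy receptor p62 and also a target of NRF2, had 1412 and 1334 FPKM in spermine libraries, against 186 and 207 FPKM in PBS libraries (log2 2.80, adjusted p 7.6e-06). Gabarapl1, a membrane anchor of autophagosomes, had 60.9 and 62.2 FPKM in spermine libraries, against 20.7 and 21 FPKM in PBS libraries (log2 1.52, adjusted p 8.6e-06). In the autophagy list 9 of 24 genes rose and 2 fell. Apart from Sqstm1 and Gabarapl1, the changes in the autophagy list lay within 1 on the log2 scale. The median of that list changed sign between scalings (0.17 as deposited, -0.01 with TPM rescaling). Ribosomal protein genes showed how much the scale matters: 49 of 78 rose on the deposited scale, 6 with TPM rescaling, 16 and 25 without spermine 3 h replicates 1 and 2, and 29 without PBS 3 h replicate 1. Processed pseudogenes, many of them copies of such genes, rose in 107 of 630 cases and fell in 28. Over all genes tested 19.9% rose and 20.6% fell, so these pseudogenes rose no more often than other genes and fell less often.

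Spermine's own pathway changed at several steps. Odc1, the enzyme that makes putrescine, had 44.8 and 44.5 FPKM in spermine libraries, against 24 and 21.4 FPKM in PBS libraries, higher in both spermine libraries (log2 0.95, SE 0.07, adjusted p 0.00015). Azin1, which shields ODC1 from antizyme, had 35.4 and 34.4 FPKM in spermine libraries, against 18.6 and 15.8 FPKM in PBS libraries (log2 0.98, SE 0.09, adjusted p 0.00037). Oaz1, antizyme itself, had 216 and 194 FPKM in spermine libraries, against 102 and 149 FPKM in PBS libraries; its PBS replicates differed and the rise was near the threshold, being lost with TPM rescaling and when any 1 of 5 libraries was left out (log2 0.72, adjusted p 0.046). Amd1, which makes the aminopropyl donor for spermidine and spermine, was lower, at 4.82 and 5.06 FPKM in spermine libraries, against 17.4 and 13.4 FPKM in PBS libraries (log2 -1.46, SE 0.13, adjusted p 0.00028). Of the 2 synthases, Srm (spermidine) had 6.97 and 5.69 FPKM in spermine libraries, against 3.58 and 4.41 FPKM in PBS libraries and rose (log2 0.55, adjusted p 0.011), while Sms (spermine) had 4.93 and 3.89 FPKM in spermine libraries, against 7.32 and 6.77 FPKM in PBS libraries and fell (log2 -0.58, adjusted p 0.0051). The 2 steps that use the donor thus moved in opposite directions, and the call for Srm was lost without spermine replicate 1 or PBS replicate 1.

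On the breakdown side, Sat1, the acetyltransferase that prepares polyamines for export, had 299.8 and 301 FPKM in spermine libraries, against 220.3 and 202 FPKM in PBS libraries (log2 0.51, adjusted p 0.0013). Smox, spermine oxidase, which releases hydrogen peroxide, had 72.8 and 66.1 FPKM in spermine libraries, against 27.2 and 37.3 FPKM in PBS libraries (log2 1.10, adjusted p 0.0036). Paox, the peroxisomal oxidase, had 2.36 and 2.05 FPKM in spermine libraries, against 3.77 and 3.13 FPKM in PBS libraries and fell (log2 -0.47, adjusted p 0.015). For Sat1, Smox and Paox the groups did not overlap, though Paox did not pass without spermine replicate 2 or PBS replicate 1. In the synthesis list 6 of 12 genes rose and 3 fell, and in the list of breakdown, transport and use 3 of 8 rose and 1 fell. ODC1, antizyme and SAT1 are known to be controlled also after transcription, which these values do not show.

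**Figure D4:**
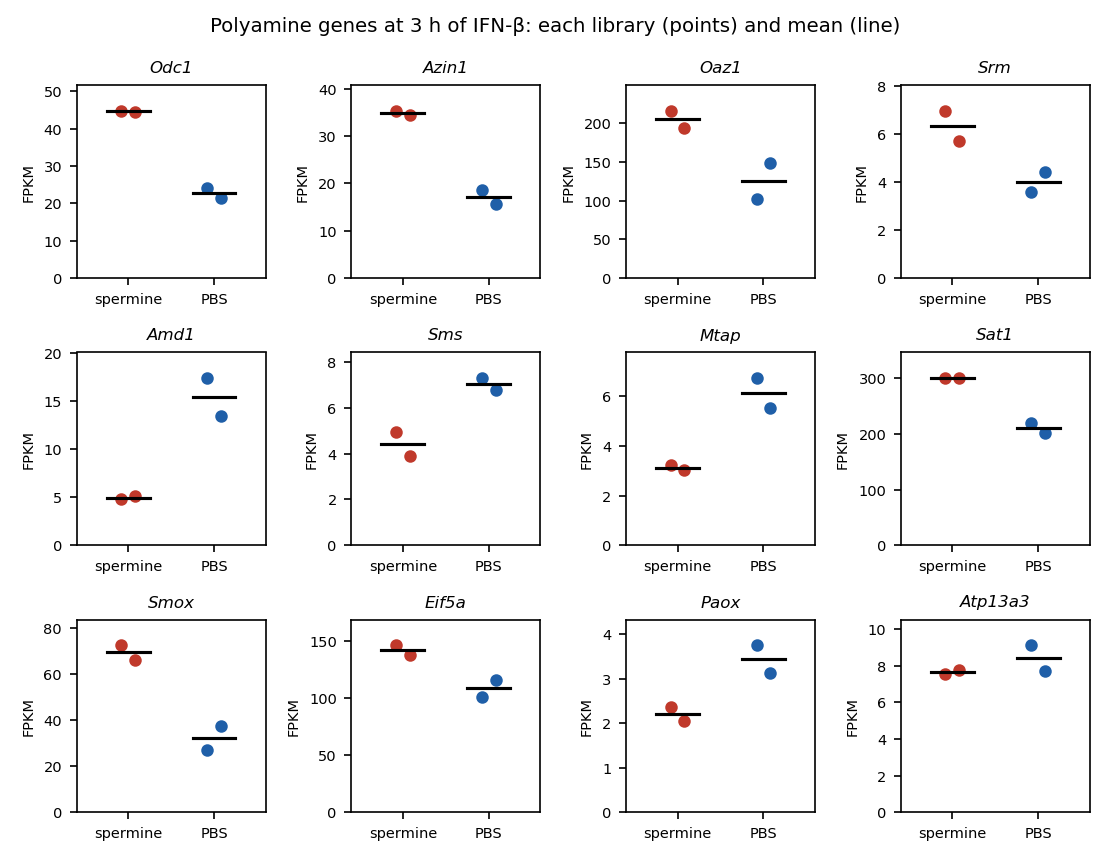
FPKM of 12 polyamine genes at 3 h with linear axes from 0; points are libraries (spermine left, PBS right) and lines are means of 2. Odc1, Azin1, Oaz1, Srm, Sat1, Smox and Eif5a lie higher with spermine, Amd1, Sms, Mtap and Paox lower, and the Atp13a3 values overlap.

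Outside the lists above, the steepest rises included Procr, the receptor of activated protein C, at 191 and 173 FPKM in spermine libraries, against 11.2 and 12 FPKM in PBS libraries (log2 3.86, adjusted p 1.9e-06), and Ednrb, an endothelin receptor, at 76.2 and 76.7 FPKM in spermine libraries, against 6.25 and 5.03 FPKM in PBS libraries (log2 3.55, adjusted p 5.1e-06). Among surface receptors, Clec4n, the fungal receptor dectin-2, had 79 and 80.6 FPKM in spermine libraries, against 15.2 and 12 FPKM in PBS libraries (log2 2.47, adjusted p 8.5e-05). All 3 receptors were many times higher in each spermine library. The steep falls included Sectm1a, at 1.65 and 0.837 FPKM in spermine libraries, against 14.9 and 13.6 FPKM in PBS libraries (log2 -2.79, adjusted p 5.8e-05), and Tnfsf8, the CD30 ligand, at 0.956 and 0.726 FPKM in spermine libraries, against 8.85 and 8.39 FPKM in PBS libraries (log2 -2.39, adjusted p 1.7e-05). The neighbouring ADP receptor genes P2ry13 and P2ry12 fell together: P2ry13 had 4.01 and 4.77 FPKM in spermine libraries, against 29.4 and 24.1 FPKM in PBS libraries and P2ry12 had 1.51 and 1.83 FPKM in spermine libraries, against 13.8 and 9.12 FPKM in PBS libraries. Tnfrsf14, the receptor HVEM, had 4.32 and 4.31 FPKM in spermine libraries, against 22.5 and 22 FPKM in PBS libraries (log2 -2.13, adjusted p 6.2e-05). In the cell death list, where 6 of 23 rose and 7 fell, Pmaip1, the BH3 protein NOXA, had 27.7 and 28.5 FPKM in spermine libraries, against 6.77 and 5.66 FPKM in PBS libraries (log2 2.02, adjusted p 2.9e-05).

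Among transcripts annotated as non-coding, AW112010 had 50.5 and 52.5 FPKM in spermine libraries, against 316 and 266 FPKM in PBS libraries (log2 -2.47, adjusted p 8.6e-06), a fall comparable to those of Cxcl9 and Tnfsf10. Mir22hg, the host transcript of miR-22, had 122 and 116 FPKM in spermine libraries, against 19.6 and 17.8 FPKM in PBS libraries (log2 2.61, adjusted p 2.4e-06). Neither showed overlap between groups. Of 167 lincRNA genes tested, 18 rose and 49 fell. No source used here says whether the counting used strand, so reads of a non-coding gene and an overlapping partner cannot be told apart.

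The same contrast at 0 h, from 4 other libraries, shows which changes were present without IFN-β. Spermine changed 4706 genes at 0 h (41.2%), 2510 rising and 2196 falling, and 2999 without PBS 0 h replicate 2. With TPM rescaling, which moved the median gene by -0.30 at 0 h, the split was 1212 rising against 4813 falling. Of the genes that rose at 3 h, 1520 also rose at 0 h, which is 66.8% of the 3 h list and 60.6% of the 0 h list. Of those that fell at 3 h, 1119 also fell at 0 h, 47.6% of the 3 h list and 51.0% of the 0 h list. Across 11421 genes the 2 changes correlated at a Pearson r of 0.654 and a Spearman rho of 0.605, a description over genes that are not independent. Stress genes rose at both times: Hmox1 changed by 4.55 at 0 h and 4.28 at 3 h, Slc7a11 by 3.68 and 3.66, and Gdf15 by 4.73 and 5.45. All 25 NRF2 targets rose at both times. The interferon lists also had members that fell without IFN-β, against 19.2% of all genes: 32 of 67 antiviral effectors (7 rose), 13 of 24 sensors (0 rose), 11 of 22 class I genes (2 rose) and 7 of 18 GTPases (0 rose). Of the 17 chemokine and cytokine genes, 2 fell and 4 rose at 0 h.

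The difference of the 2 effects, 3 h minus 0 h, was itself tested in the same fit and passed for 1550 genes (13.6%), 665 above 0 (5.82%) and 885 below 0 (7.75%). With TPM rescaling the split was 1141 above against 638 below. This count was sensitive to single libraries: it was 520 and 647 without either PBS 0 h library, 753 without spermine 0 h replicate 1, 554 and 627 without either spermine 3 h library, and 886 without PBS 3 h replicate 1. Of the 17 interferon chemokine genes, 11 passed below 0 and none above (median -1.32). Some of them, such as Cxcl9, Cxcl10 and Cxcl11, were under 1 FPKM in every library at 0 h. With a pseudocount of 1 FPKM their 0 h change is held near 0, so the difference largely repeats the 3 h fall. For Cxcl11, at 0 FPKM in every 0 h library, both values were -1.59. The same limit holds for low genes of the other interferon lists, such as Gbp4 and Ifi44. In the other interferon lists the difference passed below 0 for 15 and above 0 for 7 of 67 antiviral effectors, for 9 and 4 of 18 GTPases, for 6 and 1 of 22 class I genes, and for 3 and 0 of 24 sensors. Among NRF2 targets 3 of 25 passed above 0 and 3 below, and among integrated stress genes 4 of 27 passed above 0 and 1 below. Ddit4 changed by 2.45 at 0 h and 3.69 at 3 h, a difference of 1.24 (adjusted p 0.015). Srxn1 changed by 3.00 at 0 h and 3.63 at 3 h, a difference of 0.63 (adjusted p 0.0051). Ccl5 had 6.98 and 6.59 FPKM with spermine, against 4.87 and 4.03 FPKM with PBS at 0 h, a small rise in place of the fall at 3 h, and the difference of the effects was -2.50 (SE 0.14, adjusted p 0.0012). Cxcl9 differed by -2.25 (SE 0.15, adjusted p 0.0013). Csf1, the macrophage growth factor, had 7.03 and 6.51 FPKM with spermine, against 1.29 and 1.04 FPKM with PBS at 0 h and 24.5 and 26.4 FPKM in spermine libraries, against 32.1 and 32.2 FPKM in PBS libraries at 3 h, a difference of -2.17 (adjusted p 0.0012). Mmp13, a collagenase, had 9.37 and 6.95 FPKM with spermine, against 3.41 and 2.25 FPKM with PBS at 0 h and 58.7 and 63.4 FPKM in spermine libraries, against 133 and 101 FPKM in PBS libraries at 3 h, a difference of -2.18 (adjusted p 0.0057). Csf1 and Mmp13 were thus higher with spermine before IFN-β and lower after 3 h of it; the falls at 3 h taken alone were lost without some single 3 h libraries, among them spermine replicate 1 and PBS replicate 1 for both.

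Irf1 moved in the other direction. It had 2.34 and 2.65 FPKM with spermine, against 6.33 and 5.84 FPKM with PBS at 0 h, lower with spermine, and the effect at 3 h was higher by 1.83 (SE 0.11, adjusted p 0.0013). Cx3cr1, the fractalkine receptor, had 1.33 and 1.32 FPKM with spermine, against 11.5 and 11.5 FPKM with PBS at 0 h and 1.52 and 1.86 FPKM in spermine libraries, against 1.84 and 1.58 FPKM in PBS libraries at 3 h, so its fall was seen at 0 h and the groups overlapped at 3 h (difference 2.42, adjusted p 0.0012). Zfp36l1, an mRNA decay factor, had 5.29 and 6.84 FPKM with spermine, against 15.2 and 15.4 FPKM with PBS at 0 h and 9.15 and 9.09 FPKM in spermine libraries, against 4.15 and 5.03 FPKM in PBS libraries at 3 h (difference 2.08, adjusted p 0.0019). Enc1, a BTB-kelch protein, had 5.44 and 4.93 FPKM with spermine, against 42.1 and 42.6 FPKM with PBS at 0 h and 8.97 and 10.8 FPKM in spermine libraries, against 18.7 and 18.1 FPKM in PBS libraries at 3 h, lower with spermine at both times but far less so at 3 h (difference 1.97, adjusted p 0.0013). The difference was 1.17 for Irgm1 and 0.97 for Igtp, which were below PBS at 0 h (log2 -0.82 and -0.70) and above it at 3 h. Tests of the difference use the same 3 h libraries as the 3 h comparison and are not independent of it.

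**Figure D5:**
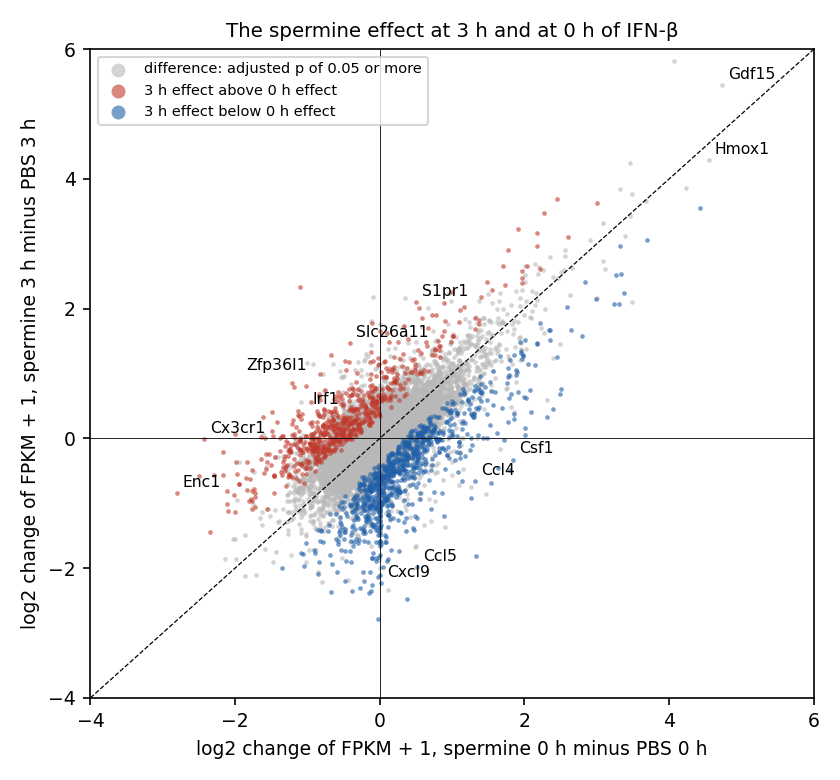
Each point is 1 of 11421 genes; the x axis is the log2 change of FPKM + 1 at 0 h and the y axis at 3 h, spermine minus PBS in both, with equal effects on the dashed line. Red (665) and blue (885) points passed the test of the difference above and below the line; Hmox1 and Gdf15 lie near the line at the upper right, Cxcl9 and Ccl5 lie below it, and Cx3cr1, Irf1 and Enc1 above it.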

How the data were processed

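Per the labels' protocols, RNA of bone marrow derived macrophages was sequenced after poly-T selection and random-hexamer priming; the protocol names blood as its source where the labels name macrophages, and the series text names DMSO where the labels name PBS. The submitters' processing notes name CASAVA 1.8, fastp, HISAT2 2.0.5, featureCounts 1.5.0-p3 and DESeq2 1.20.0 with GRCm38 and mm10, without roles. The authors deposited FPKM per gene. Multiplied by gene length, 100% of a library's values came out as whole multiples of a single step (tolerance 0.001 of a read), which gave the rebuilt reads. The steps varied inversely with median-of-ratios factors computed from the rebuilt reads, and the product of the 2 was the same in all 8 libraries.

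Genes with 1 FPKM in 2 libraries were kept. limma 3.58.1 (R 4.3.3) fitted 4 group means to log2(FPKM + 1) over 8 libraries, with an intensity trend and 4 residual degrees of freedom; the pseudocount of 1 understates changes of low genes. Fits were tested on simulated data. Lists were counted, not tested. The genes named were a set of pathway genes, the 15 largest changes each way at 3 h (10 for the difference), and per list the 4 largest each way and the 2 most abundant; Cxcl11, Il10, Psat1, Jun, Hif1a, Atp13a3, Gclm and Txnrd1, outside the rule, were named after their values were seen. Members and lists were chosen with earlier results of these data known. Figures were drawn with matplotlib 3.10.9 (Python 3.11.15). Alternatives changed the pseudocount, filter, scale, trend, samples fitted, replicate block and each library. Some genes are not reported here.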

Additional observations from a re-analysis of the deposited data

Results flagged for a closer look

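The effect of spermine at 3 h differed from its effect at 0 h, by a test of the difference itself (limma, adjusted p under 0.05), for 1550 genes, 665 with the 3 h effect above the 0 h effect and 885 below. The values printed above for single genes are given here, and further genes named above, such as Tnfsf10 and Rsad2, also passed. At 0 h Tnfsf10 had 0.0344 and 0.0418 FPKM with spermine, against 0.158 and 0.113 FPKM with PBS. At such levels the pseudocount of 1 FPKM holds the 0 h change near 0, so the difference largely repeats the 3 h change. Cxcl9, also under 1 FPKM at 0 h, shares this limit. On the log2 scale, 3 h effect minus 0 h effect, Ccl5 stood at -2.50, Cxcl9 at -2.25, Mmp13 at -2.18 and Csf1 at -2.17, all lower at 3 h. Cx3cr1 stood at 2.42, Zfp36l1 at 2.08, Enc1 at 1.97 and Irf1 at 1.83, all higher at 3 h. Also higher at 3 h were Irgm1 at 1.17, Igtp at 0.97, Ddit4 at 1.24 and Srxn1 at 0.63. Each value rests on 2 libraries per group. Groups of 2 are too small for a search for single samples that stand apart, so none was made.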

How the results depend on the processing

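Each group held 2 libraries, so every test leans on a spread shared across groups, and with a library left out the lone one is assumed to vary like the others. The 3 h count of 4626 ran from 2912 (without spermine 3 h replicate 1) to 4645 when 1 library was left out, the 0 h count of 4706 from 2999 (without PBS 0 h replicate 2) to 4897, and the count for the difference of 1550 from 520 to 1671. The other settings kept all 3 counts within 1.5 times of these values, between 3435 and 4978 at 3 h, and none of the calls at 3 h changed sign except 1 under quantile normalization. With a filter of 5 FPKM, 1986 rose and 1449 fell at 3 h. Among the genes named, those that changed sign had not passed at 3 h, apart from Fth1. With TPM rescaling they were Jak1 (-0.14), Irf9 (-0.076), B2m (-0.13), Fos (-0.048) and Psat1 (-0.090). Under quantile normalization they were Jak1 (-0.065), B2m (-0.39), Fos (-0.048) and Cx3cr1 (0.070); B2m then passed as lower. Fth1, called as higher above, came to 0 under quantile normalization, which gives the top-ranked gene of every library the same value. Without the filter on low values, 10 named genes lost their call. They were Cd68, Eif5a, Fth1, Ifi27, Ifit3, Igtp, Irf7, Irgm1, Oaz1 and Stat2. With 1 library left out, B2m ran from -0.071 to 0.23, Cx3cr1 from -0.10 to 0.076, Hif1a from -0.31 to 0.082 and Psat1 from -0.030 to 0.16. The calls that leaving out 1 library could end were those of Ccl12, Cd68, Cd74, Csf1, Eif5a, Ifi27, Ifit3, Ifnar2, Igtp, Irf7, Irgm1, Mmp13, Oaz1, Paox, Srm and Stat2. Named genes that did not pass and did under another setting, with no change of sign, were Atp13a3 and Ifnar1 (lower, TPM rescaling), Ifit1 (lower, 5 settings), Isg15 (higher, voom) and H2-D1 (higher, 4 settings, the replicate block among them). The block also ended the call of Ifit3. With the BM number as a replicate block the counts were 4978, 4996 and 1813. Deviations of libraries with the same number correlated at -0.089 between the 2 groups at 3 h. Over all 6 pairs of groups, the 3 pairs with spermine 3 h lay between -0.126 and -0.061 and the 3 pairs among the other groups between 0.229 and 0.371. Same-numbered libraries thus deviated together in 3 of the 4 groups but not in the 2 compared at 3 h, and the numbers were not taken to pair the samples.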
